A study of Mus musculus with 4 samples.

Results

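Gene expression of wild-type (WT) regulatory T cells from the tracheal lymph nodes was compared with that of WT regulatory T cells from the spleen, in 1 RNA-seq library from each tissue. The cells were CD4+Foxp3+ cells sorted by flow cytometry from C57BL/6 mice aged 8 weeks, and the labels do not say whether a library held 1 mouse or a pool. Of 28032 listed features with an exon length, 11103 had at least 20 exon reads summed over both WT libraries and were compared. The same ratio in Csnk2b-deficient regulatory T cells, with 1 spleen and 1 lymph node library and 10985 features past the same minimum, is given beside the WT values. Csnk2b encodes the regulatory subunit of protein kinase CK2, and the labels give that genotype as Csnk2b-/- without naming a Cre or an allele. No WT library enters the Csnk2b-deficient ratio.

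Regulatory T cells (Tregs) are the CD4 lineage that holds immune responses in check, and the transcription factor Foxp3 defines them. A T cell enters a lymph node from the blood through its high endothelial venules, following the ligands of the chemokine receptor CCR7. It leaves along a gradient of sphingosine-1-phosphate. Activation through the T cell receptor switches on immediate early genes within a short time, places CD69 on the surface, and in Tregs is tied to costimulatory receptors of the tumour necrosis factor receptor family.

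The tissue was not the only difference. The labels' protocols name Trizol with a TruSeq RNA kit for samples numbered 1 and 2, and an RNeasy micro kit with SMARTer cDNA amplification and Nextera XT for those numbered 3 and 4. They do not tie these numbers to libraries. If the numbers follow the order of listing, the first set is the spleen and the second the lymph node. Tissue, RNA kit and library kit then change together and cannot be told apart, so every ratio below is their joint difference. With 1 library per tissue there is no replicate check and no test, and the 95% intervals cover counting error only. Fewer cells of a type and less RNA per cell cannot be told apart in bulk samples.

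The WT spleen library had 6750695 exon reads and 15515 detected features, and the WT lymph node library had 4737814 exon reads and 12157 detected features. The 100 most abundant features took 16.16% of the spleen reads and 27.35% of the lymph node reads. Reads placed uniquely made up 85.66% in the spleen against 78.33% in the lymph node. The Csnk2b-deficient libraries showed the same contrast between tissues, with 15.89% and 27.81% in the top 100 features and 86.16% and 78.85% placed uniquely. The WT lymph node library differed from the Csnk2b-deficient one in its zeros. It held 0 reads for 473 of the features compared, with a median of 39 spleen reads, whereas the Csnk2b-deficient lymph node library held 0 reads for 41 of its features. Of those 473 features, 117 had at least 20 reads in the Csnk2b-deficient lymph node.

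Both libraries carried the genes that the sort should keep. Foxp3 had 6395 reads in the spleen against 2334 in the lymph node. Cd3d, a chain of the T cell receptor complex, had 2415 and 5050 reads, and Cd4 had 4835 and 2157. No member of the Treg core list or the T cell identity list was at 0 in either library. Csnk2b, the gene deleted in the other genotype, had at least 649 reads in each WT library.

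A ratio is the log2 of lymph node over spleen reads after TMM scaling within the pair, and a feature at 0 reads in a library was set to 3 reads there, which makes its ratio a bound. In the WT pair 1118 features (10.1%) were at least 4-fold higher in the lymph node and 1845 (16.6%) at least 4-fold lower, and the median log2 ratio of all features was -0.11. Of the lower features, 412 were at 0 reads in the lymph node. With scaling to total exon reads, which shifts each log2 ratio by -0.414, the counts became 626 higher and 2385 lower. The limit fell within a continuous distribution, with Mfap1b at 2.0005 and Rrp15 at 1.9996 on the higher side, and Nudt14 at -2.0011 and Scaf4 at -1.9995 on the lower side. In the Csnk2b-deficient pair 1091 features (9.93%) were at least 4-fold higher and 1285 (11.7%) at least 4-fold lower.

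Tissue ratios of the 10634 features compared in both pairs correlated at a Pearson r of 0.802 and a Spearman rho of 0.821 across genes. Genes are not independent replicates, and the pairs share tissue and, under the order of listing, kits. The log2 ratios had a standard deviation of 1.592 across features with a mean of at least 20 CPM (reads scaled to library size) in the WT pair and 1.584 in the Csnk2b-deficient pair. Between genotypes it was 0.285 within the spleen and 0.684 within the lymph node. Of 950 features at least 4-fold higher in WT and compared in both pairs, 634 were also at least 4-fold higher in the Csnk2b-deficient pair and 938 were above 0 there. Of 1753 at least 4-fold lower in WT, 888 passed the limit in the Csnk2b-deficient pair and 1582 were below 0 there. Tnfrsf4 and Cd69, higher in the lymph node library, and Junb, Ltb and Tgfb1, higher in the spleen library, lay near the diagonal. Ccr6 lay below the diagonal, with a smaller ratio in the Csnk2b-deficient pair, and Prdm1 and Hmox1 lay far from it.

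**Figure D1:**
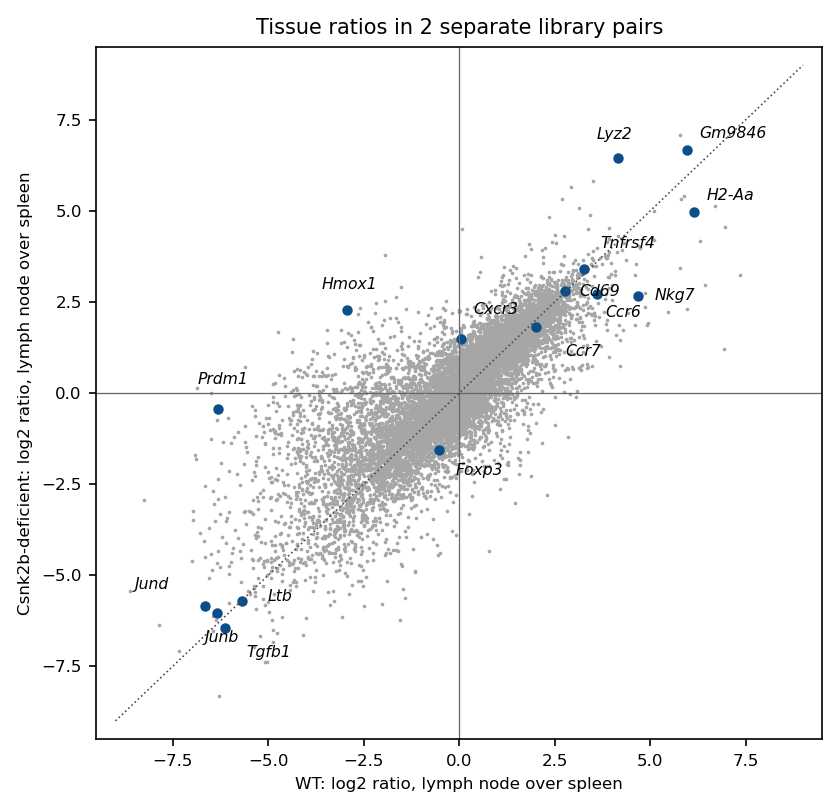
Each point is a feature, with its log2 ratio of lymph node over spleen in the WT pair on the horizontal axis and in the Csnk2b-deficient pair on the vertical axis; named genes are filled in blue and the dotted line marks equal ratios. The cloud of 10634 features follows the line, with scattered features at the left that are lower in the WT pair than in the other.

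The ratio varied with the base composition and length of the transcript. GC content, taken from the longest GENCODE M21 transcript of each gene, was available for 10944 features (98.57%). In the lowest of 10 bins of GC content, up to 41.72%, the median log2 ratio was 0.42 and 7.489% of features were at least 4-fold lower in the lymph node. In the highest bin, 57.83% to 69.02%, the median was -2.13 and 53.06% were at least 4-fold lower. The Csnk2b-deficient pair gave -2.18 and 54.24% in its highest bin. Features with an exon length up to 1976 bases had a median of 1.02, and those of 6141 bases or more had -0.53. The order of GC content and of length thus ran through both pairs alike.

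**Figure D2:**
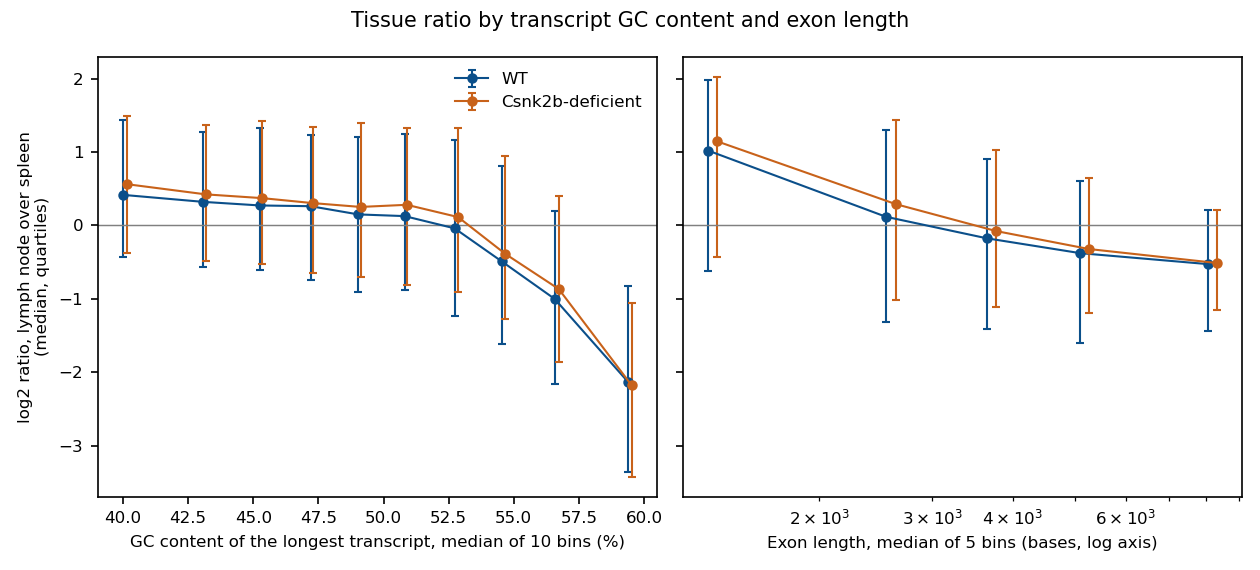
Median log2 ratio of lymph node over spleen, with bars from the lower to the upper quartile, in 10 bins of transcript GC content (left) and 5 bins of exon length (right, log axis), for the WT and the Csnk2b-deficient pair; the second set is drawn slightly to the right. Medians run from 0.42 to -2.13 with GC content and from 1.02 to -0.53 with length in the WT pair.

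Because of this gradient each ratio is also given relative to features of like GC content and exon length, as the log2 ratio less the median of features in the same of 10 bins of GC content and 5 bins of length. That comparison was added after the gradient had been seen. On that measure 6.734% of all features were at least 4-fold higher and 12.12% at least 4-fold lower, which is the background for the counts relative to like features below. The first 90 coding bases of 3 genes, chosen after their values were seen to show differing base composition, are given with G and C in capitals and read 5′ to 3′ from GENCODE M21 transcripts. Jund and Ltb were among the genes lowest in the lymph node, and Cd69 was at least 4-fold higher there.
Jund: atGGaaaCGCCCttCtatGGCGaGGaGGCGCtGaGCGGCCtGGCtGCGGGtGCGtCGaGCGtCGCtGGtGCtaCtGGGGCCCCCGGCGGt
Ltb: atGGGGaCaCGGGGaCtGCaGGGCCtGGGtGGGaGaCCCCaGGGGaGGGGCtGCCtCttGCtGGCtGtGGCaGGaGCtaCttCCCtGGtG
Cd69: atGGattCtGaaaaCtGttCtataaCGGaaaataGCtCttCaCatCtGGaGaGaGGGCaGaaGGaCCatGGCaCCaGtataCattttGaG
G and C made up 70.7% of the coding sequence of Jund and 63.5% of that of Ltb, against 45.2% for Cd69.

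Ccr7 and Cd69, which act in entry into and retention in the lymph node, were at least 4-fold higher. Ccr7, the receptor for the chemokines of the T cell zone (chromosome 11, 99005510 to 99016391, mm9), had 871 reads in the spleen against 1847 in the lymph node and a log2 ratio of 2.01 (1.89 to 2.13). Cd69, an activation marker that holds the egress receptor S1PR1 inside the cell (chromosome 6, 129217342 to 129225387), had 540 and 1937 reads and a log2 ratio of 2.77 (2.63 to 2.91). In the Csnk2b-deficient pair Ccr7 was at 1.82 and Cd69 at 2.79. Relative to features of like GC content and length the WT ratios of Ccr7 and Cd69 were 0.91 and 1.48, which keeps the direction and not the 4-fold limit. Ccr7 was also under that limit with total-read scaling, at 1.59, with total gene reads, at 1.71, and with upper-quartile scaling, at 1.87.

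Egress genes differed among themselves. S1pr1, the receptor that guides T cells out of lymphoid organs, had 2077 reads in the spleen against 1229 in the lymph node, a log2 ratio of 0.17 (0.07 to 0.27) and 0.82 in the Csnk2b-deficient pair. The WT direction of S1pr1 turned with total-read scaling, at -0.25, and relative to like features, at -0.36. Klf2, the transcription factor that drives S1pr1, had 1035 and 351 reads and a log2 ratio of -0.64 (-0.81 to -0.46), but 0.66 relative to like features, its transcript being rich in GC. S1pr4, a related sphingosine-1-phosphate receptor, had 755 and 24 reads, 16.6-fold lower in the lymph node, with a log2 ratio of -4.05 in WT and -3.55 in the Csnk2b-deficient pair. Cxcr4, the receptor for CXCL12, had 485 and 55 reads and a log2 ratio of -2.22 (-2.65 to -1.81), against -2.18 in the Csnk2b-deficient pair. For S1pr4 and Cxcr4 the ratios relative to like features were -2.76 and -3.68. Over the list, 20 of 21 genes were compared, 3 were at least 4-fold higher and 2 at least 4-fold lower, and the median was -0.30. These are 15% higher and 10% lower, against 10.1% and 16.6% of all features, so the list as a whole lay near the background. Relative to like features the median changed sign to 0.49, with 0 genes at least 4-fold higher and 2 lower.

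Of the chemokine receptors of peripheral and inflamed tissue compared, 38.46% were at least 4-fold higher, against 10.1% of all features. Some of those, Xcr1 and Ptger2 among them, passed the read minimum only through their lymph node reads. That share therefore depends on the filter. Ccr6, the CCL20 receptor that marks T cells at mucosal surfaces, had 182 reads in the spleen against 1167 in the lymph node, 12.2-fold higher, with a log2 ratio of 3.61 (3.38 to 3.84) in WT and 2.73 in the Csnk2b-deficient pair. Ccr8, a receptor of activated Tregs, had 235 and 925 reads and a log2 ratio of 2.90 (2.69 to 3.11), against 2.17 in the Csnk2b-deficient pair. Their ratios relative to like features, 2.27 for Ccr6 and 1.80 for Ccr8, left Ccr6 past the 4-fold limit. Ccr4, which binds CCL17 and CCL22, had 613 and 152 reads and a log2 ratio of -1.09 (-1.35 to -0.83), against -0.11 in the Csnk2b-deficient pair and -1.80 relative to like features. Cxcr3, the receptor of type 1 inflammation, had 766 and 418 reads and a log2 ratio of 0.05 (-0.12 to 0.23) in WT, an interval that includes 0, and 1.50 in the Csnk2b-deficient pair. For Cxcr3 the WT value was -0.36 with total-read scaling and -0.91 relative to like features.

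The remaining members with large ratios rested on few reads. Xcr1 had 1 and 33 reads (log2 ratio 5.97, 3.39 to 11.32) and Ptger2, a prostaglandin E receptor, 8 and 64 (3.92, 2.86 to 5.20). Uniquely placed reads of Ptger2 were 75% of its reads in the spleen against 21.88% in the lymph node. Of 21 listed receptors 13 were compared, 5 were at least 4-fold higher and 1 at least 4-fold lower, with a median of 0.73 against -0.11 for all features. Relative to like features the median was 0.23, with 4 higher and 1 lower. With a minimum of 50 reads 10 receptors were compared and their median was 0.41.

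**Figure D3:**
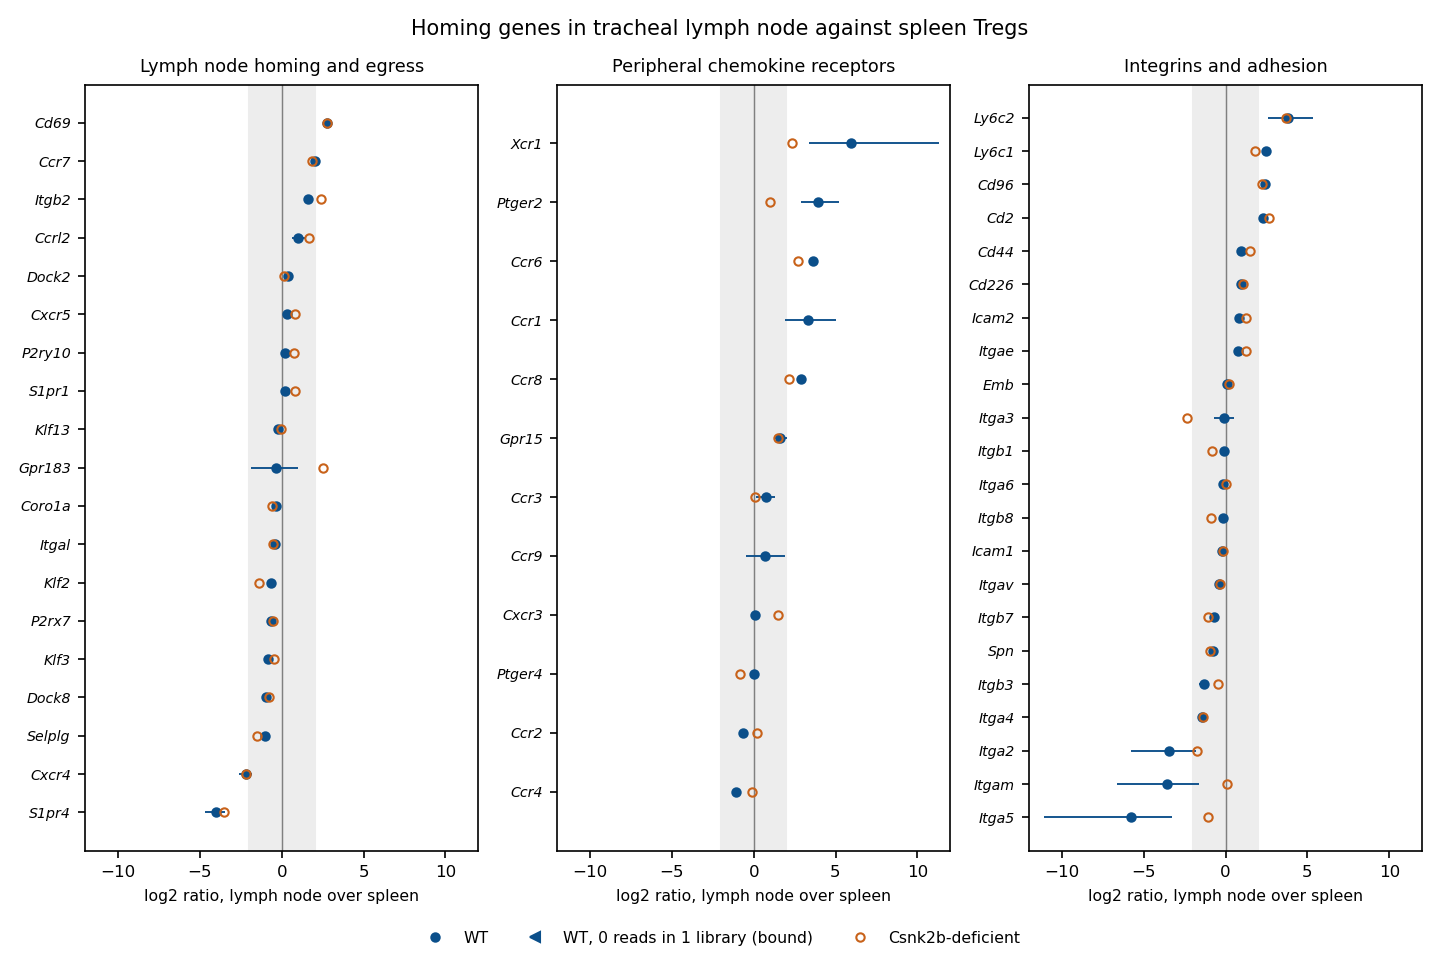
Log2 ratio of lymph node over spleen for genes of 3 homing lists, with filled points for WT, bars for its 95% counting interval, and open points for the Csnk2b-deficient pair where it had at least 20 reads; the grey band spans less than 4-fold. Ccr7 and Cd69 lie at or right of the band in WT, S1pr4 and Cxcr4 left of it in both pairs, and Itga5 left of it in WT only.

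Integrins and adhesion genes lay on both sides of 0. Itgae, the αE chain that pairs with β7 to hold T cells at epithelium, had 635 reads in the spleen against 554 in the lymph node, a log2 ratio of 0.73 (0.56 to 0.90) and 1.23 in the Csnk2b-deficient pair. Cd44, the hyaluronan receptor of activated T cells, had 964 and 979 reads and a log2 ratio of 0.95 (0.82 to 1.08). Itga5 had 106 reads and 1 read (log2 ratio -5.80, -11.12 to -3.29), Itga2 had 62 and 3 (-3.44, -5.76 to -1.83) and Itgam had 45 and 2 (-3.57, -6.66 to -1.63). In the Csnk2b-deficient pair Itga5 was at -1.08, Itga2 at -1.73 and Itgam at 0.07. Ly6c2, which shares most of its sequence with Ly6c1, had 6 and 45 reads (log2 ratio 3.83, 2.60 to 5.35). Of its lymph node reads 68.89% were uniquely placed. Ly6c2 passed the read minimum only through its lymph node reads, and Itga5, Itga2 and Itgam only through their spleen reads. Of 26 genes 22 were compared, and 4 (18.18%) were at least 4-fold higher and 3 (13.64%) lower. All features gave 10.1% and 16.6%, and the list had a median of -0.13. Against like features 2 were higher and 3 lower.

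Enzymes that make selectin ligands had a median below 0, and how far below depended on which reads were counted. Tpst2, which sulfates tyrosines of PSGL-1, had 625 reads in the spleen against 74 in the lymph node and a log2 ratio of -2.15 (-2.52 to -1.80), but -0.09 relative to like features. The sialyltransferase gene St3gal4 had 250 and 34 reads (log2 ratio -1.95, -2.52 to -1.43) and the branching enzyme gene Gcnt1 had 67 and 10 (-1.82, -2.94 to -0.85). St3gal3 had 43 reads in the spleen against 0 in the lymph node, at least 7.55-fold lower, and 19 and 3 in the Csnk2b-deficient pair. With total gene reads, which add introns, St3gal3 reversed to a log2 ratio of 2.17. Of 11 compared, 8 were below 0, 2 (18.18%, against 16.6% of all features) were at least 4-fold lower and 0 at least 4-fold higher. The median was -1.26 in WT, -1.07 in the Csnk2b-deficient pair, -0.47 relative to like features and -0.13 with total gene reads.

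Of the 26 Treg core genes, 3 differed by at least 4-fold between the tissues, Tnfrsf4 and Tnfrsf18 being higher in the lymph node and Stat5b lower. Foxp3 itself had a log2 ratio of -0.53 (-0.60 to -0.46) in WT and -1.57 in the Csnk2b-deficient pair. Only 25.54% of its spleen reads and 14.57% of its lymph node reads were uniquely placed, and on those alone the WT ratio was -1.30. Relative to like features the ratio of Foxp3 was 0.29, so its direction depended on that comparison. Il2ra, the high-affinity IL-2 receptor chain, had 4725 and 4027 reads and a log2 ratio of 0.69 (0.63 to 0.76). Ctla4, which removes costimulatory ligands from other cells, had 3992 and 2843 reads and a log2 ratio of 0.43 (0.36 to 0.51), but -0.44 relative to like features. Ikzf2, encoding the Treg factor Helios, had 8766 and 5559 reads and a log2 ratio of 0.27 (0.22 to 0.32).

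Tnfrsf4, which encodes the costimulatory receptor OX40, had 2175 reads in the spleen against 11065 in the lymph node, 9.66-fold higher, with a log2 ratio of 3.27 (3.21 to 3.34) in WT and 3.41 in the Csnk2b-deficient pair. Tnfrsf18, which encodes GITR, had 1548 and 5045 reads and a log2 ratio of 2.63 (2.55 to 2.71) in WT and 2.78 in the Csnk2b-deficient pair. Uniquely placed reads were 100% for Tnfrsf4 in both libraries, but 21.64% and 17.92% for Tnfrsf18. Both receptors stayed past 4-fold relative to like features, at 2.31 for Tnfrsf4 and 2.20 for Tnfrsf18. Nrp1, the neuropilin of thymus-derived Tregs, had 2353 and 4088 reads and a log2 ratio of 1.72 (1.65 to 1.80). Stat5b, which transmits IL-2 signals, had 2744 and 340 reads and a log2 ratio of -2.09 (-2.25 to -1.93), against -2.79 in the Csnk2b-deficient pair. Against like features 2 core genes were at least 4-fold higher and 0 lower. All 26 were compared, with 7.692% at least 4-fold higher and 3.846% lower as scaled, against 10.1% and 16.6% of all features. Their median was 0.27, or -0.14 with total-read scaling.

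T cell receptor induced genes went both ways, with 3 of 35 at least 4-fold higher and 8 at least 4-fold lower. Jund (chromosome 8, 73221638 to 73224515, mm9) had 1520 reads in the spleen against 8 in the lymph node, a log2 ratio of -6.64 (-7.86 to -5.66), and Junb (chromosome 8, 87500811 to 87502617) had 1849 and 12, a log2 ratio of -6.34 (-7.30 to -5.53). Both encode subunits of the AP-1 transcription factor, and both were as low in the Csnk2b-deficient pair, Jund at -5.84 and Junb at -6.04. Nr4a1, an orphan receptor gene switched on in proportion to T cell receptor signal, had 1118 and 84 reads and a log2 ratio of -2.81 (-3.15 to -2.49), against -1.80 in the Csnk2b-deficient pair. Egr3 had 173 and 0 reads, at least 30.4-fold lower, and was also at 0 in the Csnk2b-deficient lymph node after 115 reads in that spleen. Ier2 had 592 and 42 reads and a log2 ratio of -2.89 (-3.38 to -2.44).

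The transcripts of Jund and Junb are short and rich in GC, and relative to like features Jund was at -4.58 and Junb at -5.05. The same measure gave -2.07 for Nr4a1, -6.25 for Egr3 and -1.60 for Ier2. Genes of the same list on the higher side, named after their values were seen, included Rgs1, a brake on chemokine receptor signalling, with 1190 and 4019 reads (log2 ratio 2.68), and Cd83 with 1270 and 3006 (2.17). Immediate early factors did not all lie below 0. Egr2, a relative of Egr3, had 444 and 358 reads and a log2 ratio of 0.61 (0.41 to 0.82), and Fos, a partner of the Jun proteins in AP-1, had 165 and 115 reads and 0.40 (0.05 to 0.76). The shares of the 35 genes compared, of 38 listed, were 8.571% higher and 22.86% lower against 10.1% and 16.6% of all features, and relative to like features 1 was higher and 8 lower. The median was -0.99 in WT, -1.37 in the Csnk2b-deficient pair and -0.49 relative to like features. With 22 of 35 members below 0 and Cd69 at 2.77, the list did not move one way.

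Effector Treg genes passed the 4-fold limit about as often as all features did, and held some of the lowest ratios. Prdm1, which encodes the effector factor Blimp-1 (chromosome 10, 44156983 to 44248307, mm9), had 452 reads in the WT spleen and 0 in the WT lymph node, at least 79.4-fold lower. In the Csnk2b-deficient libraries Prdm1 had 302 and 172 reads, a log2 ratio of -0.44, so the 0 belonged to 1 of the lymph node libraries. Lag3, an inhibitory receptor for MHC class II, had 401 and 7 reads, 30.2-fold lower in the lymph node, with a log2 ratio of -4.92 in WT and -4.77 in the Csnk2b-deficient pair. Fgl2, an effector molecule of Tregs, had 70 and 3 reads (log2 ratio -3.62), and Havcr2, which encodes TIM-3, had 23 reads and 1 read (-3.60, -8.96 to -0.98). Icos, a costimulatory receptor of effector Tregs, had 2641 and 2685 reads and a log2 ratio of 0.95 (0.87 to 1.03), against 1.81 in the Csnk2b-deficient pair. Of 40 compared genes 4 (10%) were at least 4-fold higher and 6 (15%) at least 4-fold lower, near the 10.1% and 16.6% of all features. The median was 0.45 in WT, 0.46 in the Csnk2b-deficient pair and -0.13 relative to like features, with 0 higher and 7 lower on that measure.

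Costimulatory and checkpoint genes had 20.69% of members at least 4-fold higher and 10.34% at least 4-fold lower, against 10.1% and 16.6% of all features. That balance did not hold relative to like features. Cd86, a ligand of CD28 and CTLA-4, had 182 reads in the spleen against 994 in the lymph node, a log2 ratio of 3.37 (3.15 to 3.61) in WT and 2.87 in the Csnk2b-deficient pair. Pdcd1, which encodes PD-1 and was named after its value was seen, had 609 and 1952 reads and a log2 ratio of 2.60 (2.47 to 2.74), against 2.23. Of 29 compared genes 6 were at least 4-fold higher, Tnfrsf4 and Tnfrsf18 among them, and 3 were at least 4-fold lower. The median was 0.89 in WT, 1.24 in the Csnk2b-deficient pair and 0.17 relative to like features, with 3 higher and 3 lower. Cd86 is also made by antigen-presenting cells, whose markers are given below.

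**Figure D4:**
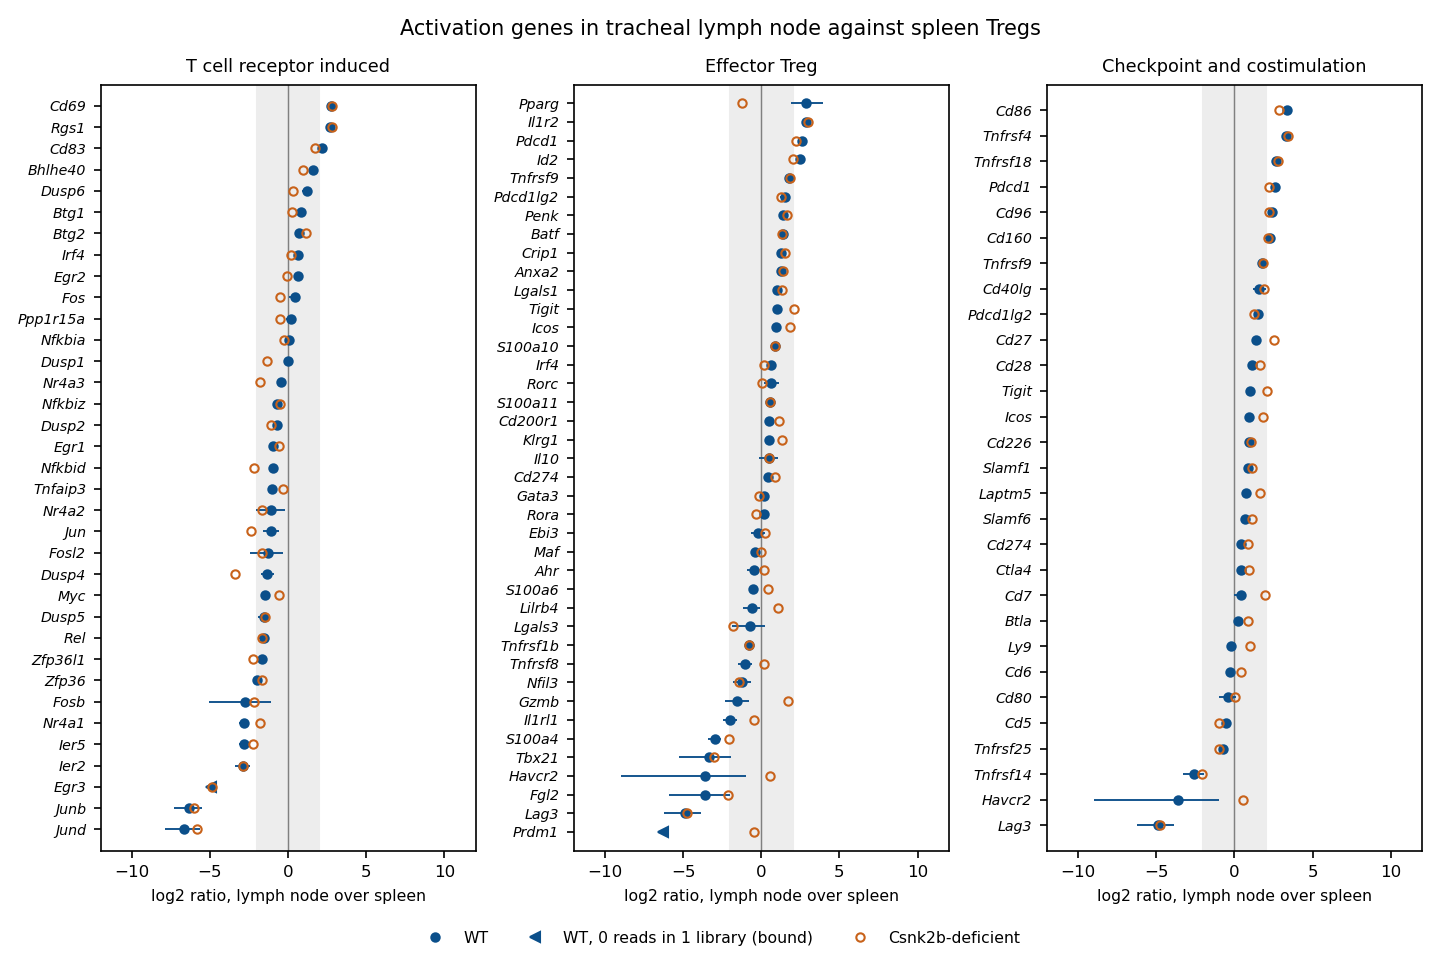
Log2 ratio of lymph node over spleen for each compared gene of 3 activation lists, with filled points for WT, bars for its 95% counting interval, triangles for bounds set by 0 reads, and open points for the Csnk2b-deficient pair; the grey band spans less than 4-fold. Jund, Junb and Egr3 lie far left in both pairs, Prdm1 in WT only, and Tnfrsf4, Cd86 and Cd69 lie right of the band in both.

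Few cytokine genes passed the 4-fold limit, and the largest ratios named here were toward the spleen. Tgfb1, the gene of a Treg effector cytokine, had 1058 reads in the spleen against 8 in the lymph node, 69.7-fold lower, with a log2 ratio of -6.12 (-7.34 to -5.14) in WT and -6.45 in the Csnk2b-deficient pair. Ltb, which encodes lymphotoxin β (chromosome 17, 35331384 to 35333265, mm9), had 4280 and 44 reads, 51.2-fold lower, with a log2 ratio of -5.68 in WT and -5.71 in the Csnk2b-deficient pair. Furin, the protease that processes the TGF-β precursor, had 509 and 18 reads and a log2 ratio of -3.90 (-4.66 to -3.22). All 3 transcripts are rich in GC, and relative to like features Tgfb1 was at -4.06, Ltb at -4.39 and Furin at -1.23. Xcl1 had 4 and 25 reads (log2 ratio 3.57, 2.04 to 5.55) and passed the read minimum only through its lymph node reads. Of 17 compared cytokine genes 1 (5.882%) was at least 4-fold higher and 3 (17.65%) at least 4-fold lower, against 10.1% and 16.6% of all features. The median was 0.36, or -0.62 relative to like features, with 2 higher and 2 lower.

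Among cytokine receptors, Il1r2, a decoy receptor for IL-1 carried by activated Tregs, had 143 reads in the spleen against 540 in the lymph node and a log2 ratio of 2.84 (2.57 to 3.12), against 2.98 in the Csnk2b-deficient pair. Il9r had 277 and 18 reads and a log2 ratio of -3.02 (-3.79 to -2.33), against -2.04. Tgfbr3 had 62 and 3 reads (log2 ratio -3.44, -5.76 to -1.83) but 44 and 48 in the Csnk2b-deficient pair. Csf2rb, a receptor chain usual in myeloid cells, had 2 and 21 reads (4.32, 2.29 to 7.45). It passed the read minimum only through its lymph node reads. Of 31 compared 3 (9.677%) were at least 4-fold higher and 2 (6.452%) lower, against 10.1% and 16.6% of all features. The median of the receptors was -0.31.

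Naive and central memory genes had more members past 4-fold on the higher side, but none relative to like features. Ly6c1 had 293 reads in the spleen against 857 in the lymph node and a log2 ratio of 2.47 (2.28 to 2.67), and Dapl1 had 14 and 41 (2.48, 1.57 to 3.46). Of 21 members 4 (19.05%) were at least 4-fold higher, these and Ccr7 among them, and Ltb was the 1 member (4.762%) at least 4-fold lower. All features gave 10.1% and 16.6%. Of the 21 members, 12 were above 0 and 9 below. The median was 0.23, or 0.66 relative to like features, with 0 higher and 2 lower on that measure. The highest T cell identity genes were Cd2, an adhesion receptor, with 3704 and 9644 reads (log2 ratio 2.31), and Lck, the kinase of the T cell receptor, with 6143 and 15899 (2.30). All 24 identity genes were compared, with 2 (8.333%) at least 4-fold higher and 0 lower, against 10.1% and 16.6% of all features. Their directions were mixed, with 15 above 0 and 9 below, the lowest at -1.91, and a median of 0.66.

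Cell cycle genes had a median of 0.82, yet several of their defining members were absent from the WT lymph node library. Kif11 had 107 reads in the spleen against 0 in the lymph node, Bub1b 82 and 0, Ccna2 71 and 0, and Plk1 39 and 0. In the Csnk2b-deficient lymph node Kif11 had 60 reads, Bub1b 96, Ccna2 18 and Plk1 3. Mki67, the proliferation marker Ki-67, had 772 and 148 reads and a log2 ratio of -1.46 (-1.72 to -1.20) in WT and -0.54 in the Csnk2b-deficient pair. Of 42 compared genes 27 were above 0 and 15 below. Of these 42, 3 (7.143%) were at least 4-fold higher and 6 (14.29%) at least 4-fold lower, near the 10.1% and 16.6% of all features. On the like-feature measure 3 of 42 were higher and 9 lower, against 6.734% and 12.12% of all features. In the Csnk2b-deficient pair 7 were at least 4-fold higher and 1 lower.

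Of the type I interferon response genes compared, 18.18% were at least 4-fold higher against 10.1% of all features, and none was at least 4-fold lower. Ifit1, an RNA-binding antiviral protein, had 204 reads in the spleen against 1542 in the lymph node, a log2 ratio of 3.84 (3.63 to 4.06) in WT and 1.90 in the Csnk2b-deficient pair. Usp18, which removes ISG15 and damps interferon signalling, had 260 and 1510 reads and a log2 ratio of 3.46 (3.27 to 3.66), against 3.56. Rtp4 had 278 and 1229 reads (log2 ratio 3.07, 2.88 to 3.26) and Ifi44 had 12 and 56 (3.15, 2.23 to 4.18). Of 33 compared genes 6 were at least 4-fold higher and 0 at least 4-fold lower, 23 were above 0 and 10 below, and the median was 1.02. Among those below 0, and named after their values were seen, were the interferon regulatory factor gene Irf7 with 529 and 131 reads (log2 ratio -1.09) and the signalling factor gene Stat2 with 1014 and 289 (-0.89). Relative to like features the median was 1.08, with 5 higher and 0 lower. It was 0.61 with total-read scaling and also 0.61 with total gene reads. The Csnk2b-deficient pair gave a median of 0.55, with 6 higher and 0 lower.

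Of 59 nuclear genes for oxidative phosphorylation, 22 (37.29%) were at least 4-fold higher and 2 (3.39%) lower, against 10.1% and 16.6% of all features. Their median was 1.75 in WT and 1.89 in the Csnk2b-deficient pair. Cycs, which encodes cytochrome c, had 351 and 1742 reads (log2 ratio 3.24), Cox4i1 had 825 and 3290 (2.92) and Uqcrb had 326 and 1230 (2.84), while Cox5a had 393 and 22 (-3.23). Fewer than 50% of the lymph node reads of each were uniquely placed, for example 26.35% for Cycs and 30.49% for Cox4i1. Relative to like features the median of the list was 0.81, with 13 genes at least 4-fold higher and 3 lower. Of 28 long transcripts of structural genes 27 were below 0 and 7 (25%) at least 4-fold lower, against 16.6% of all features. Their median was -1.09, and the lowest were Nbeal2 with 2663 and 43 reads (log2 ratio -5.03) and Spen with 1442 and 92 (-3.05). The median of the long transcripts relative to like features was -0.68, and 2 of 27 were at least 4-fold lower, against 12.12% of all features.

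Of 81 cytosolic ribosomal protein genes 10 (12.35%) were at least 4-fold higher and 3 (3.704%) lower, against 10.1% and 16.6% of all features. Their median of 0.91 became 0.19 relative to like features, with 5 higher and 4 lower on that measure. Rpl3 had 9650 and 39528 reads (log2 ratio 2.96), and 5.024% of its lymph node reads were uniquely placed. Rpl13 had 65 reads and 2 reads (-4.10) and Rps2 had 1201 and 84 (-2.91). Heat shock genes had a median of 0.14 over 18 genes. Hspa8, the constitutive cytosolic chaperone, had 10454 and 33323 reads (log2 ratio 2.60), with 11.15% of the lymph node reads uniquely placed. Its relative Hspa5, the chaperone of the endoplasmic reticulum, had 2766 and 5255 reads (1.85), and Dnaja1 had 1362 and 3347 (2.22).

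**Figure D5:**
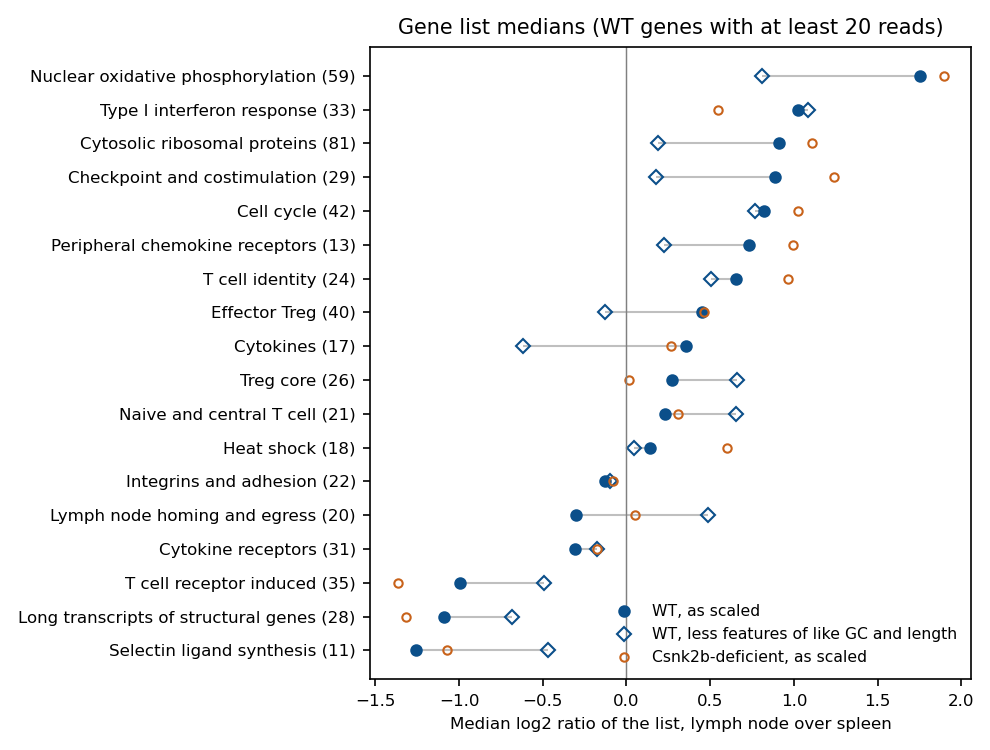
Median log2 ratio of lymph node over spleen for each gene list, with filled circles for WT, diamonds for WT less features of like GC content and exon length, and open circles for the Csnk2b-deficient pair; the number of genes compared in WT stands in parentheses. On these 2 WT measures the type I interferon list is at 1.02 and 1.08, against 0.55 in the Csnk2b-deficient pair. The list for oxidative phosphorylation moves from 1.75 to 0.81 relative to like features.

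Markers of other cells moved with the tissue as well. Of 25 B cell markers 13 were compared. Of these, 8 (61.54%) were at least 4-fold higher in the WT lymph node and 0 lower, against 10.1% and 16.6% of all features. The summed level of the markers was 1103 CPM in the WT spleen and 2606 CPM in the WT lymph node. In the Csnk2b-deficient libraries the sums were 1062.8 and 3649.2 CPM. Ighm, the immunoglobulin μ constant gene, gave 7522 of 8595 marker reads in the WT spleen and 7850 of 10696 in its lymph node counterpart. Without Ighm the WT sums were 137.7 and 693.4 CPM. H2-Aa, an MHC class II chain (chromosome 17, 34406276 to 34424772, mm9), had 7 and 261 reads in WT, 70.8-fold higher, Bank1, a B cell scaffold, had 10 and 233, 44.2-fold higher, Fcer2a had 2 and 48 and H2-Ab1 had 3 and 49. Most of the 8 higher markers, H2-Aa, Bank1, Fcer2a and H2-Ab1 among them, passed the read minimum only through their lymph node reads. The shares of 61.54% higher and 0 lower therefore depend on the filter. The defining B cell genes Ms4a1 and Pax5 had 0 reads in both WT libraries. MHC class II and Cd86 are shared by B cells, dendritic cells and other antigen-presenting cells, and their part in the ratios above was not tested.

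Myeloid markers summed to 87.7 CPM in the WT spleen and 142.5 in the WT lymph node, with 21 of 31 at 0 reads in the latter, Csf1r, Cd14 and Cd68 among them. Of 8 compared in WT 4 (50%) were at least 4-fold lower and 2 (25%) higher, against 16.6% and 10.1% of all features. The 4 lower, Itgam, Cd68, Cebpb and Hmox1, passed the read minimum only through their spleen reads, so that share depends on the filter. The median was -1.11 in WT, against 4.19 over 12 in the Csnk2b-deficient pair. In WT the summed level and the median thus differ in direction. The median also depends on the filter, and with a minimum of 50 reads it was 2.37 over 2 genes. Cybb, an NADPH oxidase subunit gene, gave 436 of 683 spleen and 335 of 585 lymph node reads, and without it the WT sums were 31.7 and 60.9 CPM. The Csnk2b-deficient sums were 71.2 and 536.8 CPM. Lyz2, lysozyme of myeloid cells, had 20 and 187 reads in WT (log2 ratio 4.15) and 19 and 1291 in the Csnk2b-deficient pair, and Cebpb had 27 reads and 1 read in WT. Dendritic cell markers summed to 116.1 and 463.6 CPM in WT, with 9 of 18 at 0 in the lymph node. Of 9 compared 4 (44.44%) were at least 4-fold higher and 0 lower, against 10.1% and 16.6% of all features. The 4 were Cd86, Xcr1, Ly6d with 3 and 19 reads and Zbtb46 with 21 and 46. Xcr1 and Ly6d passed the read minimum only through their lymph node reads, so the share of 44.44% depends on the filter. Of the 9, 7 were above 0 and 2 below, the lowest at -1.31. In the Csnk2b-deficient pair 4 were at least 4-fold higher and 1 lower. Itgax and Flt3 were under the read minimum.

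Natural killer and CD8 markers summed to 45.0 CPM in the WT spleen and 451 in the WT lymph node, and Nkg7 alone made up most of the latter. Nkg7, a granule protein of cytotoxic lymphocytes, had 119 and 1617 reads, a log2 ratio of 4.69 (4.42 to 4.97) in WT and 2.66 in the Csnk2b-deficient pair. Cd8a had 16 and 64 reads in WT (2.92), whereas Eomes had 39 and 0 and Prf1 had 24 and 0. Of 6 compared 2 (33.33%) were at least 4-fold higher and 3 (50%) lower, against 10.1% and 16.6% of all features. Eomes and Prf1 passed the read minimum only through their spleen reads, and Cd8a only through its lymph node reads. These shares therefore depend on the filter. Haemoglobin genes had reads in the WT lymph node, 78 for Hba-a1, 116 for Hba-a2 and 93 for Hbb-b1. They had 2, 0 and 1 in the WT spleen, and 10, 8 and 8 in the Csnk2b-deficient lymph node. Of 17 erythroid and platelet markers 5 were compared, with 3 (60%) at least 4-fold higher and 1 (20%) lower, at -4.16. All features gave 10.1% and 16.6%. The 3 higher were these haemoglobin genes, which passed the read minimum only through their lymph node reads. The list median was 6.20, or 2.53 over 4 genes with uniquely placed reads. Of 25 stromal and epithelial markers 20 were at 0 in the WT lymph node and 3 were compared, Epcam at -3.02, Tg at 2.36 and Pecam1 at 0.59. Of plasma cell markers 5 were compared, and Derl3 was higher with 6 and 35 reads while Prdm1 was at 0. The part of any of these cells in the Treg ratios was not tested.

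The features with the largest ratios were not homing or activation genes for the most part. Among 7168 features with a mean of at least 20 CPM, the 12 highest were H2-Aa, Gm9846, Rpl36-ps3, 4632427E13Rik, Bank1, Pop7, Gm10269, Gm4149, Gm6055, Nkg7, Gm10076 and Specc1, with log2 ratios from 6.15 for H2-Aa to 4.36 for Specc1. In 7 of them fewer than 50% of reads were uniquely placed, Gm9846 (114 and 3718 reads) having 0.941% in the lymph node. All 12 were also at least 4-fold higher in the Csnk2b-deficient pair. The uncertain placement makes the Gm features, Rpl36-ps3 and Pop7 uncertain as genes, since reads of a similar copy can be counted there.

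The 12 lowest were Vars, Atp13a2, Setd1a, B4galnt4, Ntng2, Ppp1r37, Jund, Adora2a, Gm10800, Rxrb, Junb and Prdm1. Vars, the valyl-tRNA synthetase gene, had 1506 reads in the spleen against 2 in the lymph node, a log2 ratio of -8.63 (-11.68 to -6.78). Adora2a, the adenosine receptor through which T cells are restrained, had 538 and 3 reads, a log2 ratio of -6.56 (-8.84 to -5.01) in WT and -3.70 in the Csnk2b-deficient pair. B4galnt4 had 583 reads and 0, at least 102.4-fold lower. The values of B4galnt4 and Prdm1 are bounds set by the 3 reads that stand in for 0, so their place among the 12 depends on that floor. With total gene reads Ppp1r37 was at -1.52, short of 4-fold, and Ntng2 at -2.75 in place of -6.66. The GC content of these 12 ranged from 35.9% for Gm10800 to 67.1% for Jund, with a median of 59.4%. In the Csnk2b-deficient pair 11 of the 12 were also at least 4-fold lower, Prdm1 being the exception.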

How the data were processed

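Messenger RNA of sorted mouse Tregs was sequenced on a MiSeq, and the submitters' processing notes name CASAVA 1.8.2 and the build mm9. Aligner, annotation and any use of strand were not given in the sources used here. Overlapping and antisense genes are uncertain for that reason. The deposited tables give counts of reads per feature, per the file headers. Total exon reads, which include reads with several placements, were used. The deposited RPKM was not used. Of 37583 listed features, 9551 have no exon length and were left out.

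The WT libraries were scaled by TMM (edgeR 4.0.16, R 4.3.3), and CPM rest on the scaled totals. Features needed 20 reads summed over the pair. A count of 0 was set to 3 reads. The limit was 4-fold, and 95% Clopper-Pearson intervals of the ratio (scipy 1.17.1, Python 3.11.15) cover counting error only. No test was made, since each tissue had 1 library. The ratio calculation was tested on simulated data.

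GC content came from the longest GENCODE M21 transcript (another build, matched by symbol, 914 by an older one), in 10 bins crossed with 5 of exon length.

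Named genes were the 12 highest and 12 lowest features at 20 CPM or more, 19 Treg, homing and activation genes named in any case, and the 4 largest ratios of each of 25 lists. Members and lists were chosen with earlier results of these data known. Alternatives were other scalings, uniquely placed or gene reads, other minimums, a prior count of 2, a 2-fold limit and, added later, like GC content and length. Some list members enter the counts and medians but are not reported here.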

Additional observations from a re-analysis of the deposited data

Results flagged for a closer look

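Hmox1, which encodes the haem-degrading enzyme heme oxygenase and belongs to the myeloid marker list, had opposite tissue ratios in the genotypes. It had 44 reads in the WT spleen and 0 in the WT lymph node, a log2 ratio bound of -2.95, and 18 and 68 reads in the Csnk2b-deficient pair, a log2 ratio of 2.29. The difference between the genotypes was not tested, since each group had 1 library. Across all features, 14 went past 2-fold lower in WT and past 2-fold higher in the Csnk2b-deficient pair beyond counting error, and 2 went the other way.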

How the results depend on the processing

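No paired analysis was possible because each tissue had 1 WT library, and for the same reason no library could be left out. The count of features at least 4-fold higher was 1118, and it became 626 with total exon reads as the scaling and 737 relative to like GC content and exon length. With a 2-fold limit 2927 were higher and 3375 lower. The other alternatives kept both counts within 1.5 times. Of 102 named genes past 4-fold, 95 stayed past it with total-read scaling, 89 with total gene reads and 80 of 100 relative to like features. With total gene reads, which add introns, St3gal3 reversed to 2.17 and Tgfbr3 to 1.25. The list medians of Treg core, naive and central T cell, heat shock and cytokine genes changed sign with total-read scaling. With total gene reads the median of the homing and egress list turned to 0.09 and that of the 3 stromal and epithelial markers to -1.95. With a minimum of 50 reads the medians of myeloid and of natural killer and CD8 markers turned to 2.37 and 2.94. Relative to like features those of homing and egress, effector Treg and cytokine genes changed sign. Genes with a handful of reads in a library are limited by counting error alone to wide intervals.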
